A study of Mus musculus with 2 samples.

Results

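The nuclear genes of the mitochondrial respiratory chain were described by the accessibility of their promoters in mouse heart. A gene was taken where it is a nuclear protein-coding gene of GENCODE M21 and its symbol starts with Nduf, Sdh, Uqcr, Atp5, Cox4, Cox5, Cox6, Cox7 or Cox8. This gave 97 of 21911 genes, namely 46 of complex I, 8 of complex II, 8 of complex III, 18 of complex IV and 17 of complex V. They comprised 85 subunits and 12 assembly factors (8 named Ndufaf and 4 named Sdhaf). The rule goes by symbol, so Ndufa4, which is now known as a subunit of complex IV, is counted with complex I. Cox7a2l, which joins complexes into supercomplexes, is counted with complex IV.

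Complexes I to IV pass electrons from NADH and succinate to oxygen. All of them except complex II pump protons across the inner mitochondrial membrane, and complex V uses the proton gradient to make ATP. Most subunits are made from nuclear genes, but the catalytic core of complex IV and the membrane core of complex I are made from mitochondrial DNA and are not among these genes. Heart muscle is among the tissues richest in mitochondria, and several nuclear subunits of complex IV have muscle forms (Cox6a2, Cox7a1 and Cox8b) that replace ubiquitous forms (Cox6a1, Cox7a2 and Cox8a) as striated muscle matures. Nuclear respiratory factor 1 (NRF1), the ETS factor GABP, the estrogen-related receptors (ERR) and YY1 are known regulators of such genes.

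The data are DNase-seq of heart tissue from male B6CASTF1/J mice aged 14 days, a cross of C57BL/6J with CAST/EiJ, in 1 group with 2 biological replicates. DNase I cuts DNA where chromatin is accessible, so a peak marks an accessible site. A footprint marks a short stretch that was protected from cutting, and footprints were counted whether or not they lay inside a called peak. The label of replicate 1 speaks of 3 males, no animal number stands in that of replicate 2, and nothing says whether hearts were pooled, so an SD may set several animals against 1. With 1 group and 2 samples there was no contrast to test, and values are given for each replicate with the mean ± SD over both. A gene's signal is the highest value among the larger deposited peak sets within 1 kb of any of its annotated starts, on a read-depth scale set by the authors. It is 0 where there is no peak, and a gene is called open where both replicates have one. In a whole tissue, a site open in few cells and a site weakly open in many cells cannot be told apart. The depth behind each value is unknown, since no read totals are stated. As a check of the tissue, all 9 heart muscle markers (such as Myh6, Tnnt2 and Actc1) were open, beside 68.8% of all protein-coding genes. Their mean signals ran from 0.390 to 2.93, and all but Ryr2 lay below the median of 2.86 over all genes. The markers of hepatocytes (0 of 4), red cells (0 of 3) and testis (0 of 4) were closed, while 2 of 6 of skeletal muscle and 2 of 4 of neurons were open. The open skeletal muscle markers were Tnnt3 (1.39 ± 0.11) and Myod1 (0.514 ± 0.026), and the open neuron markers were Snap25 (6.18 ± 0.50) and Syn1 (2.94 ± 0.58). Snap25 was thus above all 9 heart muscle markers and Syn1 level with the highest of them, Ryr2 (2.93 ± 0.23). The part of other cell types in the values below was not tested.

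Nearly all respiratory chain promoters were accessible, and most were strongly so. Of the 97 genes, 94 (96.9%) were open, beside 68.8% of all protein-coding genes. The 3 others had no peak in either replicate, and no gene had a peak in 1 replicate alone. The median signal of the 97 genes was 11.8 in replicate 1 and 9.16 in replicate 2 (10.5 ± 1.87), beside 3.06 and 2.69 over all genes and 7.07 and 6.11 over the 15069 open genes. Both replicates put 70 of the 97 (72.2%) above the median of open genes, beside 32.4% of all genes. Replicate 1 gave the higher value in 91 of the 94 open respiratory genes, with a median log2 ratio of 0.33, and the same ratio was 0.26 over all open genes. Across the 94 genes, which share the 2 libraries and are not themselves replicates, log2 signal correlated between the libraries with a Pearson's r of 0.979.

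**Figure D1:**
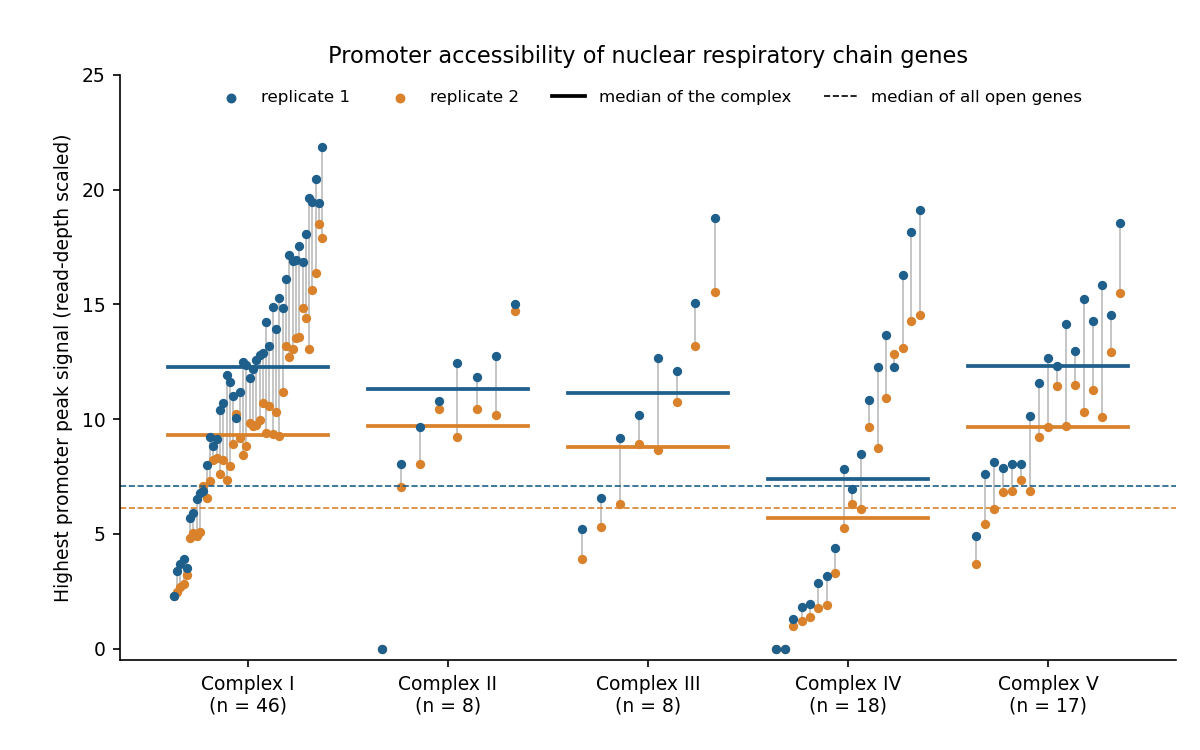
Highest promoter peak signal (vertical axis, read-depth scaled by the authors) of each of the 97 genes, grouped by complex and ordered by mean, with replicate 1 in blue and replicate 2 in orange joined by a grey line. Thick lines are the medians of each complex and dashed lines those of all open genes (7.07 and 6.11). Complex IV has the lowest median in both replicates, 7.39 and 5.68, and holds 2 of the 3 genes at 0.

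Complexes I, II, III and V had similar promoter accessibility, and complex IV was lower. The median signal was 12.3 in replicate 1 and 9.31 in replicate 2 for complex I (10.8 ± 2.10), 11.3 and 9.70 for complex II (10.5 ± 1.14), 11.1 and 8.78 for complex III (9.96 ± 1.67) and 12.3 and 9.65 for complex V (11.0 ± 1.88). Of these 4, complex III was the lowest in each replicate and complex V stood above complex I. Complex II alone changed place, from below complexes I and V in replicate 1 to above them in replicate 2. The SDs hold the shift between replicates that the complexes share, so they do not measure the spread of a difference between complexes. Complex IV had 7.39 and 5.68 (6.54 ± 1.21), below each of the other medians in the same replicate. Genes above the median of open genes in both replicates numbered 36 of 46 in complex I, 7 of 8 in complex II, 6 of 8 in complex III, 14 of 17 in complex V and 7 of 18 in complex IV. Leaving out the 7 tissue-restricted forms of complex IV, a choice made after values were seen, gave its other 11 genes a median of 12.3 and 9.65 (11.0 ± 1.84). Mean signals in complex IV ranged from 0 to 16.8. Where peaks that reach the promoter of a second gene were set aside, the median was 4.98 for complex IV, 0 for complex II, 2.96 for complex III, 4.40 for complex I and 7.44 for complex V, so that complex II was the lowest. The median of all genes was not taken under that rule.

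Complex I, the entry point for NADH, had all 46 genes open. The highest mean was that of Ndufa13, an accessory subunit also known as GRIM-19, with 21.9 in replicate 1 and 17.9 in replicate 2. The middle of its peak lay at -752 bp from the start in replicate 1 and at -732 bp in replicate 2. That peak also came within 1 kb of a start of Tssk6 and of Yjefn3, and windows of 500 bp left Ndufa13 with 0.847 ± 0.14. The start that RefSeq gives for Ndufa13 lies 538 bp from the GENCODE start, on the side away from this peak. The peak is not within 1 kb of the RefSeq start in either replicate. Ndufaf4, an assembly factor, came next by the mean with 19.4 and 18.5, the highest value of the complex in replicate 2, from a peak at its own start that reached no other gene. Ndufa8, a subunit on the intermembrane side, had 20.5 and 16.4 from a peak it shares with Morn5. At the low end, Ndufa4l2, a paralogue of Ndufa4 induced in hypoxia, had 2.28 and 2.28. The X-linked Ndufb11, an accessory subunit of the membrane arm, had 3.36 and 2.46, and Ndufaf1, an early assembly factor, had 3.68 and 2.70. These low genes stood below the median of open genes in each replicate. The 7 core subunits of the peripheral arm, which carry the flavin and the iron-sulfur clusters or bind ubiquinone, had a median of 9.46 ± 1.78. The lowest by the mean was Ndufs3, with 5.90 and 5.04, although Ndufs8, an iron-sulfur subunit with 6.51 and 4.89, was lower in replicate 2. The 8 complex I assembly factors had a median of 11.9 ± 2.82, close to that of the whole complex.

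Complex II, succinate dehydrogenase, links the citric acid cycle to the chain and has no subunit from mitochondrial DNA. All 4 of its subunits were open and above the median of open genes in both replicates. Sdha, the flavoprotein, had 15.01 and 14.7. Sdhb, the iron-sulfur subunit, had 12.7 and 10.2, while the membrane anchors were Sdhc, with 11.8 and 10.4, and Sdhd, with 9.65 and 8.06. The flavoprotein was thus the highest in each replicate and the anchor Sdhd the lowest. Among the assembly factors, Sdhaf2, needed to attach flavin to Sdha, had 8.06 and 7.05, and Sdhaf1, which helps insert iron-sulfur clusters into Sdhb, had no peak in either replicate.

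The closed call of Sdhaf1 depended on the gene model. GENCODE M21 places its only start on chromosome 7 at 30323895, and within 1 kb of it no base was listed with a false discovery rate under 0.05 in either replicate, although 98.5% of the 32-base words there occur once in the genome. RefSeq places the start at 30322375, which is 1520 bp away. A peak at that start, chr7:30322341-30322560 in replicate 1, had a signal of 16.3, and that of replicate 2, chr7:30322321-30322560, had 12.03. The peak also lies at the promoter of E130208F15Rik. With RefSeq starts added, Sdhaf1 had 14.1 ± 2.99 and 95 of the 97 genes were open. The sequence from 250 bases before to 50 after the RefSeq start is shown because the 2 annotations disagree on it; it spans chr7:30322326-30322625 for Sdhaf1 (minus strand) in GRCm38.p6, the assembly also named mm10. Capitals mark the 100 bases that lay in footprints of both replicates.
Sdhaf1: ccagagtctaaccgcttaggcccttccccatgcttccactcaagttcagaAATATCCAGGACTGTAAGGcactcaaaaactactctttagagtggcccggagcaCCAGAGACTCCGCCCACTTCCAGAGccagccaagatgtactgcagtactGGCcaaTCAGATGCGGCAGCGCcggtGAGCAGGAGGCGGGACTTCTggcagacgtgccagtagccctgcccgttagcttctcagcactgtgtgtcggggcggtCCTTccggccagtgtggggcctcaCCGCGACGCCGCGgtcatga
Footprinted bases are spread over this window, whereas the GENCODE window held no listed base.

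Complex III, which hands electrons from ubiquinol to cytochrome c, had all 8 genes open. Uqcrfs1, the Rieske iron-sulfur protein, had the highest value with 18.8 and 15.6. Uqcrc1, a core protein, had 15.1 and 13.2, and Uqcrh, the hinge protein that helps dock cytochrome c, had 12.1 and 10.8. Uqcrc2, the other core protein, had 6.57 and 5.28, less than Uqcrc1 in both replicates, although the 2 proteins occur together in the complex. Uqcrb, which binds ubiquinone, had the lowest value with 5.21 and 3.92, and Uqcr11, a small subunit, had 9.16 and 6.28.

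Complex V, the ATP synthase, had all 17 genes open. Its 8 core genes all stood above the median of open genes in both replicates, with a median of 11.7 ± 2.58. Atp5c1, the rotating gamma subunit, had 14.5 and 12.9, Atp5b, the catalytic beta subunit, had 15.8 and 10.1, and Atp5a1, the alpha subunit, had 7.87 and 6.82. Alpha and beta form the catalytic hexamer in equal numbers, and the beta promoter was the higher in both replicates. The 3 genes of the c ring, Atp5g1, Atp5g2 and Atp5g3, encode the same mature protein from separate loci. Atp5g1 had 15.2 and 10.3, Atp5g2 had 12.96 and 11.5, and Atp5g3 had 8.03 and 7.34. Atp5g3 was the lowest of these in both replicates, and the order of the others changed between replicates. With its 5' end alone, Atp5g2 had 6.31 ± 0.98. Outside the core, Atp5mpl, a small proteolipid, had the highest value of the complex with 18.5 and 15.5. Atp5l, the g subunit of the dimer interface, had the lowest with 4.90 and 3.68, below Atp5j2 (subunit f) with 7.60 and 5.41 and Atp5j (coupling factor 6) with 8.13 and 6.09.

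Complex IV, cytochrome c oxidase, held both very strong and closed promoters. Cox6a1, the ubiquitous form of subunit VIa, had 19.1 and 14.5, Cox6c, a subunit with no second form here, had 18.1 and 14.3, and Cox5b, which binds zinc on the matrix side, had 16.3 and 13.1. At the other end, the testis forms Cox7b2 and Cox8c had no peak in either replicate, no footprint and no base within 1 kb listed with a false discovery rate under 0.05. Unique 32-base words made up 99.9% of the Cox7b2 window and 98.5% of the Cox8c window. Cox6a2, the muscle form of subunit VIa, was the weakest open gene of the 97.

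With windows of 1 kb, the tissue-restricted form had a weaker promoter peak than its ubiquitous partner in each of the 8 pairs compared. This held in both replicates, but other rules turned the pairs of Cox4i2 and Ndufa4l2, as given below. The 3 muscle forms all lie on chromosome 7 of mm10, Cox6a2 (ENSMUSG00000030785.8) at chr7:128205435-128206387, Cox7a1 (ENSMUSG00000074218.3) at chr7:30184144-30186078 and Cox8b (ENSMUSG00000025488.9) at chr7:140898945-140900446. The strongest promoter peak covered the annotated start in each, at chr7:128206201-128206440 for Cox6a2 and chr7:30184061-30184240 for Cox7a1 in both replicates, and at chr7:140900321-140900540 in replicate 1 and chr7:140900221-140900540 in replicate 2 for Cox8b. Cox6a2 had 1.28 in replicate 1 and 0.997 in replicate 2, against 19.1 and 14.5 at Cox6a1. The ubiquitous gene was 14.96-fold and 14.6-fold higher, a difference (muscle minus ubiquitous) of -15.7 ± 3.04. Cox8b had 1.801 and 1.21 against 12.3 and 8.76 at Cox8a, which was 6.80-fold and 7.23-fold higher (-9.00 ± 2.06). Cox7a1 had 7.82 and 5.26 against 13.7 and 10.9 at Cox7a2, which was 1.75-fold and 2.07-fold higher (-5.76 ± 0.14). Cox7a1 was therefore the most accessible of the muscle forms, at a level near the median of open genes, and the other muscle forms lay far below it. The muscle forms carried footprints all the same, 4 and 9 in the 2 replicates at Cox6a2, 5 and 6 at Cox7a1 and 3 and 6 at Cox8b.

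Forms of other tissues were low too. Cox4i2, the form of lung and hypoxia, had 1.96 and 1.36 against 10.8 and 9.65 at Cox4i1, and Cox6b2, of testis, had 2.85 and 1.77 against 6.97 and 6.28 at Cox6b1. Ndufa4l2 had 2.28 and 2.28 against 8.81 and 8.24 at Ndufa4. The order of the Cox4i2 and Ndufa4l2 pairs turned where peaks that reach the promoter of a second gene were set aside. Cox4i1 and Ndufa4 then had 0 in both replicates, while Cox4i2 and Ndufa4l2 kept their values. Cox7b2 and Cox8c, at 0, stood against 3.15 and 1.92 at the X-linked Cox7b and against Cox8a. The 8 tissue forms had a median of 1.58 ± 0.42, below the median of all genes, and the 7 ubiquitous partners 9.79 ± 1.46. The muscle forms Cox6a2 and Cox8b lay below Cox4i2 and Cox6b2, forms assigned to other tissues, in each replicate. No test of the pairs as a group was made.

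**Figure D2:**
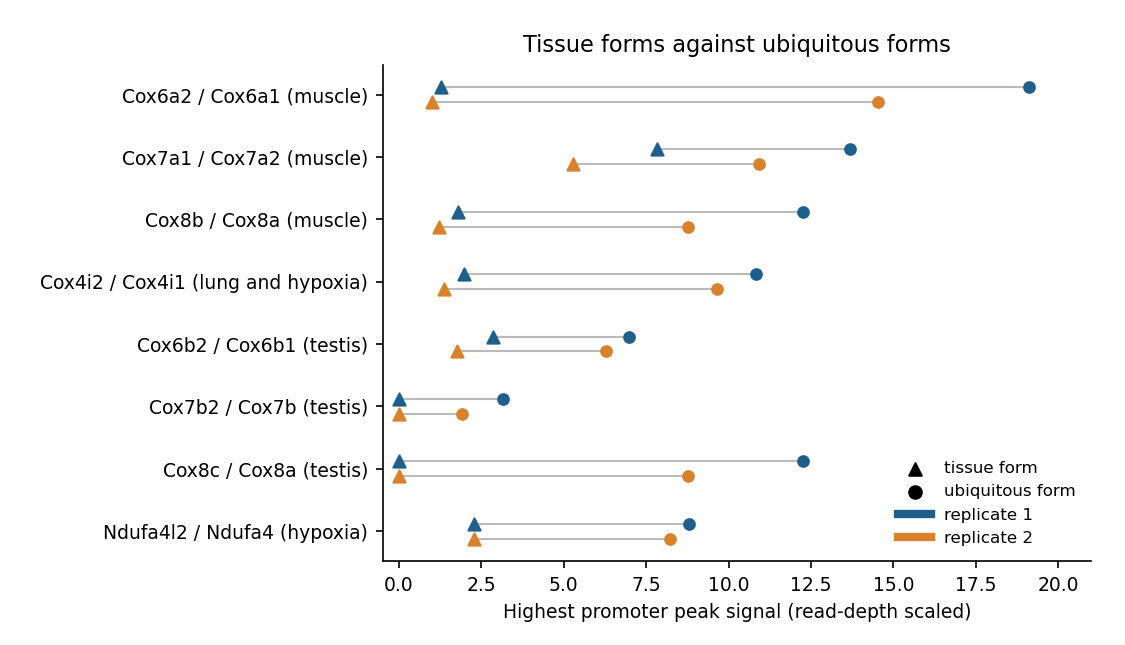
Highest promoter peak signal (horizontal axis, read-depth scaled by the authors) of the tissue form (triangle) and the ubiquitous form (circle) in 8 pairs, in replicate 1 (blue) and replicate 2 (orange). The triangle lies left of the circle in every pair and replicate, with the widest gap at Cox6a2 and Cox6a1 (1.28 and 0.997 against 19.1 and 14.5).

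Cox6a2 and Cox8b had stronger peaks away from the start than at it. Upstream of Cox8b, a peak with its middle at -2994 bp in replicate 1 (-2974 bp in replicate 2) had a signal of 4.89 and 4.80, and another at -8274 bp (-8264 bp) had 5.09 and 4.20. Both exceeded the promoter peak of Cox8b, which had 1.801 and 1.21. Upstream of Cox6a2, a peak at -1993 bp (-2003 bp) had 2.61 and 1.30, also above the promoter values of 1.28 and 0.997. Windows of 2 kb take in that peak and gave Cox6a2 1.96 ± 0.93. At Cox7a1 the order was the reverse, with 3.13 and 2.51 at -2634 bp against 7.82 and 5.26 at the start. None of these upstream peaks lay within 1 kb of a protein-coding start. The hypoxia forms had strong peaks nearby as well, with 12.8 and 11.0 at -1967 bp of Ndufa4l2, and 13.1 and 10.3 at 12497 bp downstream of the start of Cox4i2. Windows of 2 kb raised Ndufa4l2 to 11.9 ± 1.33, above its partner Ndufa4 with 8.52 ± 0.40. Which gene such a peak acts on was not tested.

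**Figure D3:**
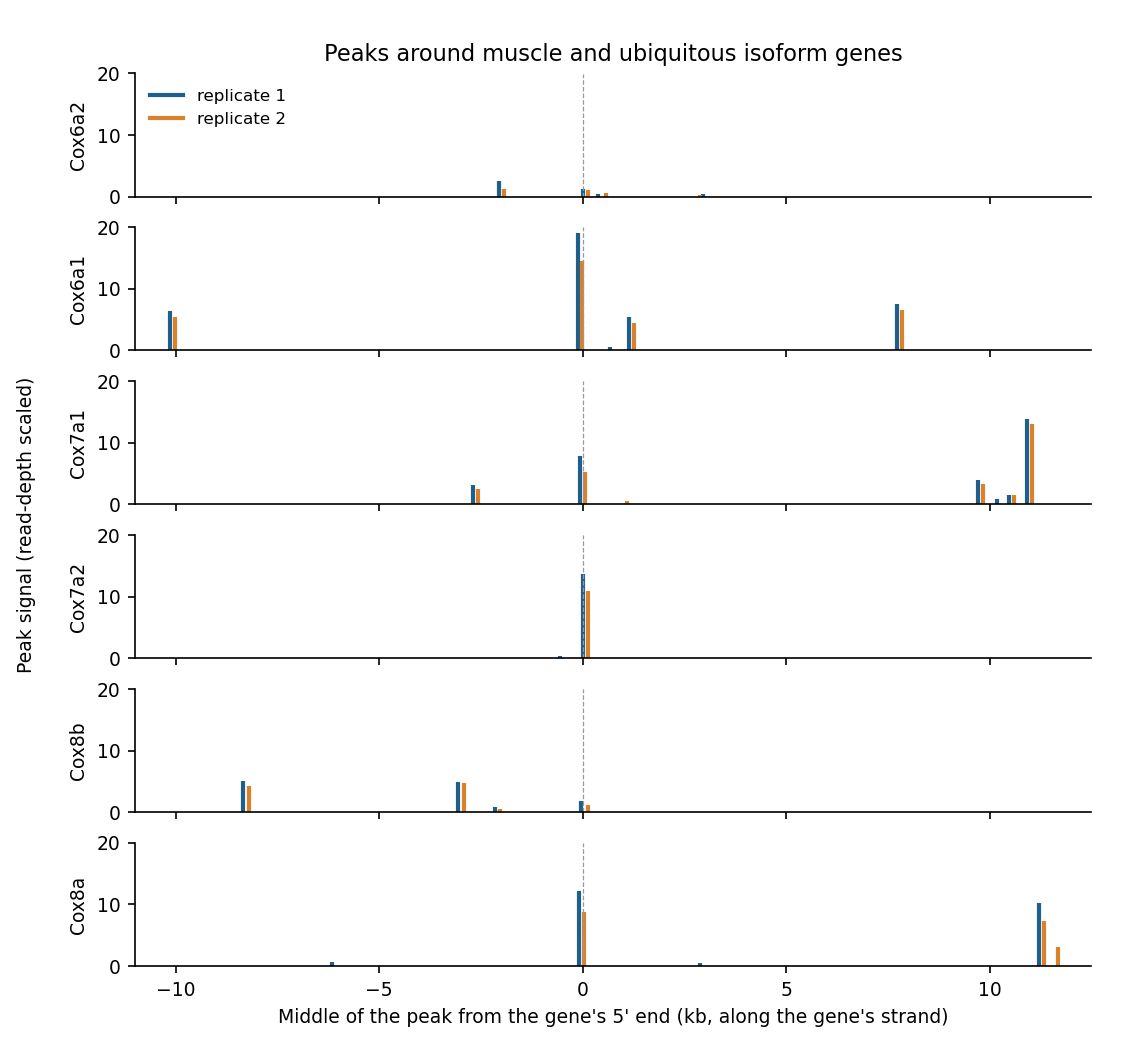
Signal of each peak (bar height, read-depth scaled by the authors) against the distance of its middle from the gene's 5' end (kb, along the gene's strand) around 3 muscle forms and their ubiquitous partners, with replicate 1 in blue and replicate 2 in orange, drawn slightly apart. The bars at 0 are high at Cox6a1, Cox7a2 and Cox8a, and at Cox8b the bars upstream (4.89 and 4.80, 5.09 and 4.20) exceed those at the start. The high bars near 11 kb at Cox7a1 lie at the promoter of Capns1.

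The sequences of 5 of these promoters are shown to set muscle forms beside ubiquitous forms. Each runs from 250 bases before to 50 after the RefSeq start, 5′ to 3′ on the strand of the gene, in GRCm38.p6, with capitals where a base lay in footprints of both replicates. They span chr7:30183921-30184220 for Cox7a1 (plus strand), chr9:79759804-79760103 for Cox7a2 (minus strand), chr7:140900397-140900696 for Cox8b (minus strand), chr19:7217567-7217866 for Cox8a (minus strand) and chr5:115348909-115349208 for Cox6a1 (minus strand).
Cox7a1: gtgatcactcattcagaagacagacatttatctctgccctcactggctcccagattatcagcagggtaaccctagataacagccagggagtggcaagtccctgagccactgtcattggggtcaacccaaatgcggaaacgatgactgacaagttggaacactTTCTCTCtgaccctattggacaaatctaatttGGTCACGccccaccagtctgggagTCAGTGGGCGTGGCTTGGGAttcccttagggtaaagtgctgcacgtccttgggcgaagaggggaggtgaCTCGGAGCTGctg
Cox7a2: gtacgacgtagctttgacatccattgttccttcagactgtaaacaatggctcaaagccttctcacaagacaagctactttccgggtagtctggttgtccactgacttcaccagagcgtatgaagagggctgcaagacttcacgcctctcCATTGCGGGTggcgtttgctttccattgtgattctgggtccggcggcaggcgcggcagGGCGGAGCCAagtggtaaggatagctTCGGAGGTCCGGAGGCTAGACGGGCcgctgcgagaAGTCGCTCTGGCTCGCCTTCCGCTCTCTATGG
Cox8b: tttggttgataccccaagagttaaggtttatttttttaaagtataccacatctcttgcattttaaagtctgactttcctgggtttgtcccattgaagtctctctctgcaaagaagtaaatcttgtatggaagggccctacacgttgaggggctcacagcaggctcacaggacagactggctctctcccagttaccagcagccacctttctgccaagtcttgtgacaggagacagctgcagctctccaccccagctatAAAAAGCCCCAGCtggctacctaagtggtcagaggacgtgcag
Cox8a: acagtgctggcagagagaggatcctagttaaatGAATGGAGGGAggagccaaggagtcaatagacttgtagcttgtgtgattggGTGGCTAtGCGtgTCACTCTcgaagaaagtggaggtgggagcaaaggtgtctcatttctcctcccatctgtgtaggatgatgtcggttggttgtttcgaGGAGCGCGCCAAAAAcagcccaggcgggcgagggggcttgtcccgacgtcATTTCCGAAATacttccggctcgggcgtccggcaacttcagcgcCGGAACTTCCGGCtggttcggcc
Cox6a1: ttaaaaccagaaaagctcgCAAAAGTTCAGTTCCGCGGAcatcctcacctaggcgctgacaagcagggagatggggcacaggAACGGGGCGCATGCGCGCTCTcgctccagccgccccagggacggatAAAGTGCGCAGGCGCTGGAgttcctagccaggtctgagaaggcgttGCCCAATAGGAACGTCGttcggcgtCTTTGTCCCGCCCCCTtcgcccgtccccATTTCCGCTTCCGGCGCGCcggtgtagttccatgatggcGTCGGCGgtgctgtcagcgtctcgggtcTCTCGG
Bases in footprints of both replicates numbered 44 at Cox7a1, 77 at Cox7a2, 13 at Cox8b, 67 at Cox8a and 125 at Cox6a1. The 2 muscle forms thus had fewer bases in called footprints than their partners, and at Cox8b these bases formed a single run just downstream of the annotated start. The part of the weaker signal of the muscle forms in these counts was not tested. The sequences also differ in CpG content. Over 500 bases either side of the 5' end, the ratio of observed to expected CpG was 0.277 at Cox7a1, 0.245 at Cox8b and 0.261 at Cox6a2, against 0.804 at Cox7a2, 0.693 at Cox8a and 0.962 at Cox6a1. The 8 tissue forms ranged from 0.186 to 0.468 and the 7 ubiquitous forms from 0.482 to 0.998, without overlap. The median was 0.723 over the 97 genes, 0.552 over all genes and 0.695 over open genes. The less accessible form thus had the lower CpG ratio in each pair. Among the tissue forms alone the order differed, since Cox7b2 and Cox8c had the highest ratios (0.468 and 0.464) and no peak, and Cox7a1 had the highest signal. The part of CpG content in the signal was not tested.

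Respiratory genes often shared their promoter with a neighbour on the other strand. A protein-coding gene started on the opposite strand within 1 kb for 35 of the 97 (36.1%), beside 11.0% of all genes and 15.4% of open genes. The share was 19 of 46 in complex I, 4 of 8 in complex II, 4 of 8 in complex III and 7 of 17 in complex V, but 1 of 18 in complex IV, where Cox4i1 faces Emc8 at 101 bp. The named partners were chosen after their values were seen. Several work in mitochondria or in translation, such as Timm8b, of protein import, 98 bp from Sdhd, Mrpl36, of the mitochondrial ribosome, 51 bp from Ndufs6, Rps28, of the cytosolic ribosome, 10 bp from Ndufa7, and the elongation factor Eef1b2, 3 bp from Ndufs1. Gabpa, which encodes the DNA-binding subunit of GABP, starts 93 bp from Atp5j, and the 2 genes have the same peak signal. The strongest peak reached the promoter of another gene in 36 of the 94 open respiratory genes (38.3%), beside 18.3% of open genes. Such a peak cannot be assigned to 1 gene, and with these peaks set aside 62 of the 97 genes were open and the median signal was 5.26. The share and median of all genes were not taken under this rule, so these 2 values have no background beside them.

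The 3 X-linked genes were low, a group chosen after values were seen. Ndufa1, an accessory subunit, had 3.89 and 2.82, Ndufb11 had 3.36 and 2.46 and Cox7b had 3.15 and 1.92. Their median of 3.36 and 2.46 lay near that of all 490 open X-linked genes, 3.29 and 2.57, while open autosomal genes had 7.32 and 6.28. The mice were male, with a single X chromosome, and its part in these values was not tested.

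Footprints clustered close to the start. A footprint lay in the promoter windows of 94 of the 97 genes (96.9%) in both replicates, beside 67.2% of all genes and 97.7% of open genes. The share was thus near that of open genes. The median number was 7 in each replicate, beside 8 in open genes. In the 100 bp before the start, respiratory genes had 2.89 footprints per gene in replicate 1 and 2.90 in replicate 2, and open genes had 2.45 and 2.55. From 100 to 200 bp after the start the order turned, with 0.216 and 0.320 in respiratory genes and 0.408 and 0.561 in open genes. The middle of the strongest peak was a median of 29.5 bp (replicate 1) and 27.5 bp (replicate 2) from the nearest start, beside 56 and 55 bp in open genes. The median respiratory gene had 3 regions with a peak in both replicates in its body and 10 kb either side, and the median open gene had 5. Signal and footprint number were weakly related across the 97 genes (Pearson's r of 0.341 and 0.351), which share the same libraries.

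**Figure D4:**
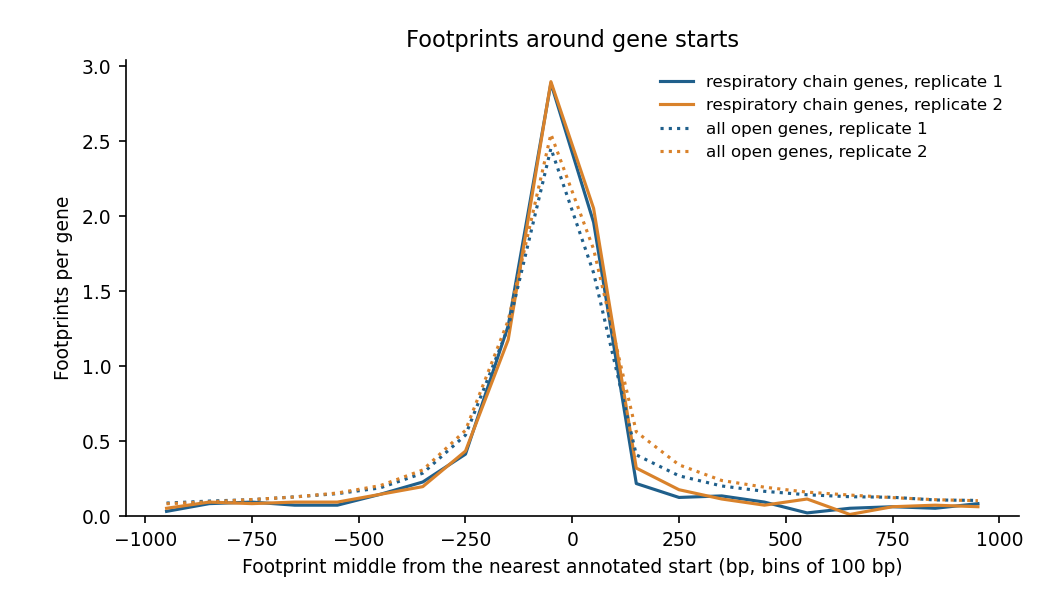
Footprints per gene (vertical axis) in bins of 100 bp by distance from the nearest annotated start (horizontal axis, bp, upstream to the left), for respiratory chain genes (solid) and all open genes (dotted) in replicate 1 (blue) and replicate 2 (orange). The solid lines are higher in the bin before the start (2.89 and 2.90 against 2.45 and 2.55) and lower from 100 to 200 bp after it (0.216 and 0.320 against 0.408 and 0.561).

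Among sequence motifs at footprints, the NRF1 consensus was the most frequent in respiratory genes in the 300 bases around the start. Each of 15 consensus sequences was searched on both strands from 250 bases before to 50 after the 5' end, and a match counted where it overlapped a footprint, with 10 bp either side, in both replicates. The NRF1 consensus (GCGC, any base, then TGCGC) matched so in 16 of the 97 genes (16.5%), beside 5.39% of all genes and 7.84% of open genes. With or without a footprint it was found in 17 of the 97 and in 5.98% of all genes. In windows of 1 kb either side of any start, NRF1 matches at footprints were found in 26 of the 97 genes and YY1 matches in 27. The same windows gave NRF1 in 1908 and YY1 in 1204 of all 21911 genes. The order of the 2 thus turned in respiratory genes but not over all genes. In the window of 300 bases, the 16 genes with NRF1 were 4 of 8 in complex II, 6 of 46 in complex I, 1 of 8 in complex III, 1 of 18 in complex IV and 4 of 17 in complex V. In complex II they were Sdha, with 3 sites, Sdhd, Sdhaf3 and Sdhaf4. Cox6a1, the strongest promoter of complex IV, had 2 sites and no other gene of that complex had any. A match is a description of these letters and not evidence of binding. The sites of complex II, Cox6a1, Uqcrc1 and Ndufaf4 are shown because they carry this pattern, with 15 bases either side, the matched bases in capitals and coordinates in GRCm38.p6.
Sdha, chr13:74350226-74350265, plus strand: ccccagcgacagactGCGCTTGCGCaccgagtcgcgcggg
Sdha, chr13:74350271-74350310, plus strand: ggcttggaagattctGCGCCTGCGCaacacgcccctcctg
Sdha, chr13:74350314-74350353, plus strand: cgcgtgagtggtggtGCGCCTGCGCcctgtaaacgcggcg
Sdhd, chr9:50603904-50603943, plus strand: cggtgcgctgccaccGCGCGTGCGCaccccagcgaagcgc
Sdhaf3, chr6:6955996-6956035, minus strand: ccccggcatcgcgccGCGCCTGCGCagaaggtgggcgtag
Sdhaf4, chr1:24005608-24005647, minus strand: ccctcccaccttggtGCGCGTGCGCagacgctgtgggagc
Cox6a1, chr5:115349051-115349090, plus strand: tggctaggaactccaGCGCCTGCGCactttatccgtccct
Cox6a1, chr5:115349096-115349135, plus strand: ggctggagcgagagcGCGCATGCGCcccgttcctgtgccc
Uqcrc1, chr9:108936638-108936677, plus strand: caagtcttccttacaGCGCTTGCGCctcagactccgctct
Ndufaf4, chr4:24897955-24897994, plus strand: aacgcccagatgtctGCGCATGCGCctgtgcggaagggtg
Each site is written on the strand that holds the consensus, and all of these sites started within 139 bases upstream or 30 downstream of the 5' end. The other NRF1 genes were Ndufa8, Ndufa11, Ndufaf5, Ndufb4 and Ndufs5 in complex I and Atp5g3, Atp5h, Atp5k and Atp5mpl in complex V.

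The consensus sequences of the other known regulators matched at a footprint in fewer genes within this window. AANATGGC, the YY1 consensus, was in the window of 17 of the 97 genes and 6.15% of all genes, and lay at a footprint in 7 (7.22%), beside 2.58% of all genes and 3.75% of open genes. Of these 7 genes, 6 were in complex I (Ndufa4l2, Ndufa9, Ndufaf8, Ndufb5, Ndufb8 and Ndufb11) and the other was Atp5h. CCGGAAGT, the ETS consensus bound by GABP, lay at a footprint in Ndufs1, Uqcrh, Uqcrq and Cox8a, or 4.12% beside 3.18% of all genes and 4.63% of open genes, so its share was near the background. It was in the window of 6 of the 97 genes and 4.68% of all genes. TCAAGGTCA, the ERR consensus, was in the windows of Atp5g3 and Sdhd and in 0.475% of all genes, and at no footprint of the 97 in both replicates, beside 0.0137% of all genes. Any of these 4 motifs at a footprint was found in 26 of the 97 genes (26.8%), beside 14.9% of open genes, and Atp5h alone had more than 1 of them. None of the 4 consensus sequences contains another. Sites of Ndufb5, Ndufa9, Cox8a and Uqcrh are shown in the same format as examples of the YY1 and ETS matches, picked with their positions in view. Position 0 is the 5' end. The Ndufb5 sites start at -152 and 0, the Ndufa9 site at 21, the Cox8a sites at 31 and -6 and the Uqcrh site at -10.
Ndufb5, chr3:32736823-32736860, plus strand: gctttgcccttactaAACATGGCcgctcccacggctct
Ndufb5, chr3:32736975-32737012, plus strand: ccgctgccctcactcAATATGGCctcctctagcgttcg
Ndufa9, chr6:126849093-126849130, minus strand: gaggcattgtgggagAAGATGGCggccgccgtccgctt
Cox8a, chr19:7217563-7217600, plus strand: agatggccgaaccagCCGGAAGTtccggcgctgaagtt
Cox8a, chr19:7217600-7217637, plus strand: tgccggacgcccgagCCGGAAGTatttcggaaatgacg
Uqcrh, chr4:116075059-116075096, plus strand: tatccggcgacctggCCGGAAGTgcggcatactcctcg
In Cox8a, both ETS matches fall in or beside capitals of the promoter shown above, while the muscle form Cox8b had no match to any of the 15 motifs. Other pairs did not follow this, since the ubiquitous forms Cox7a2 and Cox6b1 had no match either and the muscle forms Cox6a2 and Cox7a1 had some.

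**Figure D5:**
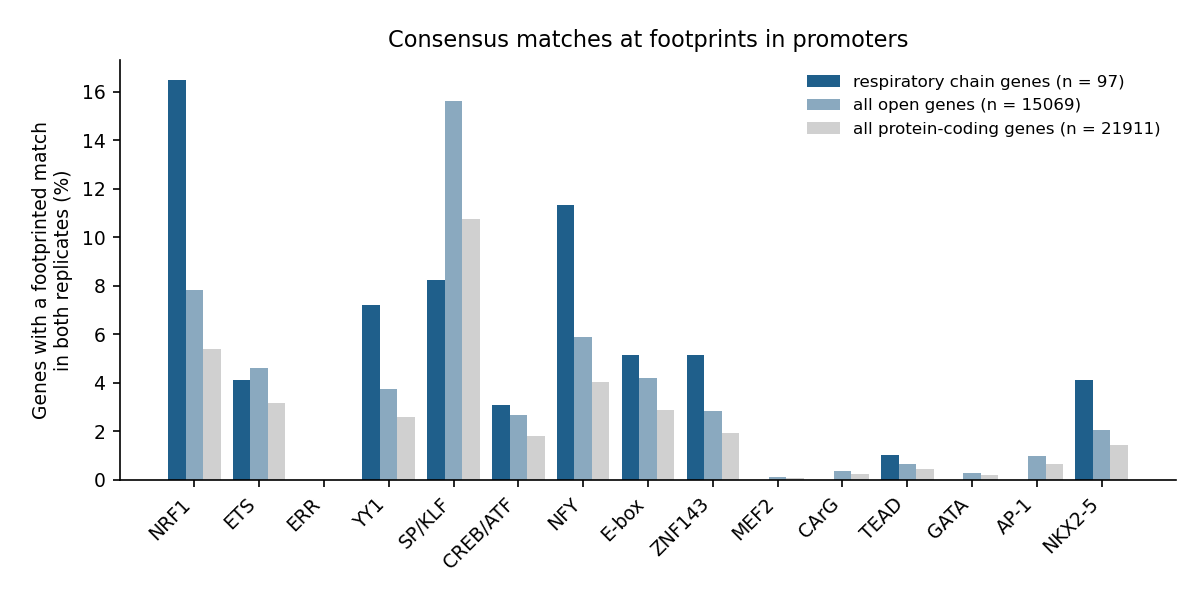
Percentage of genes (vertical axis) with a match at a footprint in both replicates for 15 consensus motifs (horizontal axis), among the 97 respiratory chain genes (dark blue), all open genes (light blue) and all protein-coding genes (grey). The NRF1 bar is 16.5% against 7.84% and 5.39%, the NFY bar 11.3% against 5.89% and 4.05%, and the SP/KLF bar is below those of the other groups.

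General promoter motifs were uneven, and motifs of heart factors lay at few footprints in respiratory genes and in all genes. AGCCAAT, the NFY consensus, lay at a footprint in 11 of the 97 (11.3%), beside 4.05% of all genes and 5.89% of open genes. It was in the window of 14 of the 97 and 9.31% of all genes, and 6 of the 11 genes were in complex I, 4 in complex V and 1, Cox6b2, in complex IV. GGGGCGGGG, the SP and KLF consensus, lay at a footprint in 8 of the 97 (8.25%), beside 10.8% of all genes and 15.6% of open genes. The ZNF143 consensus (ACTACA, any 2 bases, then TCCC) did so in 5 of the 97 (5.15%), namely Atp5o, Cox7b, Cox7c, Ndufv1 and Uqcr10. Its share was 1.96% of all genes and 2.85% of open genes. The E-box CACGTG did so in 5 (5.15%), beside 2.89% of all genes and 4.21% of open genes. TGACGTCA, of CREB and ATF factors, did so in 3 (3.09%), beside 1.83% of all genes and 2.66% of open genes. The E-box and CREB shares were thus near those of open genes. Of the motifs of heart and muscle factors, TNAAGTG, of NKX2-5, lay at a footprint in 4 or 4.12% (beside 1.42% of all genes and 2.07% of open genes). GGAATGT, of TEAD factors, did so in 1 or 1.03%, Cox5a (beside 0.443% of all genes and 0.644% of open genes). No respiratory gene had a match at a footprint in both replicates to the MEF2 consensus (beside 0.0822%), the CArG box of SRF (beside 0.246%), AGATAAG of GATA factors (beside 0.201%) or TGANTCA of AP-1 (beside 0.68%), and with shares this low among all genes a count of 0 in 97 says little. The single MEF2 match among the 97 was in the muscle form Cox6a2, 28 bases upstream of its 5' end, at a footprint in replicate 2 and not in replicate 1. The NKX2-5 match of Cox7a1, at 26, was at a footprint in replicate 1 and not in replicate 2. The NKX2-5 match of Cox6a1 overlaps one of its NRF1 sites, so those footprints cannot be assigned to 1 motif.

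Genes that regulate or complete the chain were accessible as well. All 14 listed regulators were open, beside 68.8% of all protein-coding genes. The highest were Esrra, encoding an estrogen-related receptor, with 27.9 and 19.9, Yy1 with 18.7 and 17.2 and Tfb2m, a mitochondrial transcription factor, with 20.1 and 15.1. The lowest were Ppargc1a, encoding the coactivator PGC-1alpha, with 1.08 and 1.08, Esrrb with 1.90 and 1.82 and Esrrg with 2.31 and 2.27. The coactivator and 2 of the 3 receptors thus stood below the median of open genes in both replicates. They also stood below the median of all genes, 3.06 and 2.69. Of 42 chain genes outside the symbol rule that were found by name, 41 were open, again beside 68.8% of all genes. The 42 had a median of 11.5 and 9.85, beside 7.07 and 6.11 over open genes. They included all 37 assembly factors, and the closed gene was Cyct, the testis form of cytochrome c, which was closed as were the testis forms Cox7b2 and Cox8c.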

How the data were processed

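DNase-seq data of 2 heart samples were analysed, as deposited on mm10 (the same assembly as GRCm38.p6). Per the deposited sample notes, the authors made peaks, footprints and false discovery rates separately from each replicate's filtered alignment. The authors scaled the peak signal by read depth in a way that is not stated. The deposited p-value-like column is a false discovery rate of the cut rate, listed where under 0.05. The other deposited column, in the footprint lists, is constant and was not used. The aligner, the callers, the depth and the handling of CAST alleles: not given in the sources used here.

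Starts came from GENCODE M21, and each gene took the highest peak within 1 kb of any start. The 2 records of Atp5o were joined. No gene was filtered out, and 1 gene is not reported here by name. RefSeq promoter sequences (GRCm38.p6) matched 78 of the 97 symbols. Among the others, sequences of Atp5a1, Atp5f1, Atp5mpl, Atp5s, Cox4i1, Cox4i2, Cox6a2, Cox6c, Cox8c, Ndufa2, Ndufa4l2, Ndufaf6, Ndufb9, Ndufs1, Sdhc, Uqcrb, Uqcrc2 and Uqcrq were not printed. The members, lists, motifs and settings were chosen with earlier results of these data known. Genes were named where they belong to an isoform pair, lack a promoter peak in a replicate, are the 3 highest or lowest of a complex or of the regulators, or are the highest or lowest core subunits. Any further gene was picked with its values in view.

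On simulated data, 100% of 200 planted promoter peaks and 100% of 1500 planted motifs were found. Python 3.11.15, numpy 2.4.6, numba 0.67.0 and matplotlib 3.10.9 were used. Alternatives covered windows, starts, peak sets, shared peaks, footprint rules and each replicate alone. The p-value of a difference was not computed for any comparison.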

Additional observations from a re-analysis of the deposited data

How the results depend on the processing

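Of 109 alternative values over 16 results, 93 stayed near the value reported (within 1 SD over replicates, or within 1.5 times for a count of genes), 16 moved and 0 reversed. Part of this was fixed in advance. For a median or a difference, 1 replicate alone always lies within 1 SD of the mean of 2. A count or a median cannot change sign, so only the differences between isoforms could reverse. The smaller peak sets returned the same count of open genes, medians and differences as the larger sets. With peaks that reach 1 gene's promoter alone, open genes numbered 62, the median signal was 5.26, and the medians of complexes I to V were 4.40, 0, 2.96, 4.98 and 7.44. No value over all genes was taken under this rule. With the 5' end alone, complex IV had 4.98 and complex V had 8.74. Without the tissue forms, an alternative added after seeing the data, complex IV had 10.95. Footprints inside peaks alone gave a median of 5 per gene. Windows of 1 kb either side of any start gave 26 genes with NRF1, 8 with ETS and 27 with YY1 matches, beside 1908, 1071 and 1204 of all 21911 genes. A match wholly inside a footprint gave 2 with ETS and 2 with YY1, beside 256 and 169 of all genes. The causes were not tested, but the alternatives with fewer peaks or wider windows change the counts by construction. Differences between muscle and ubiquitous forms kept their sign under each alternative run. The pairs of other tissues are not among the 16 results. Of these, Ndufa4l2 rose above Ndufa4 with windows of 2 kb, and Cox4i2 and Ndufa4l2 rose above their partners with peaks of 1 gene alone. With either replicate alone, 94 genes were open and the median was 9.16 or 11.8. No paired analysis was possible because the study has 1 group. The depth behind each peak is unknown, so a closed promoter may hold accessibility below detection.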
